A study of Mus musculus with 12 samples.

Results

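The genes described here are 10 activity-induced immediate early genes, found by symbol among the 23282 gene rows of each of 12 count tables from mouse brain. They encode the zinc finger transcription factors Egr1, Egr2, Egr3 and Egr4, the AP-1 subunits Fos, Fosb and Junb, the transcription factors Npas4 and Nr4a1, and the synaptic protein Arc. HD mice were R6/2, a line in which a transgene carries the first exon of human HTT with an expanded CAG repeat under the human HTT promoter, and WT mice were their normal littermates. Striatum and cortex were each sampled at 8 weeks (pre-symptom) and at 13 weeks (post-symptom), with 2 HD libraries and 1 WT library for each region and age, so WT values have no replicate error. The labels name no treatment beyond age, and they give neither sex nor whether the striatum and cortex libraries came from the same mouse, so p-values measure only the spread between these libraries. Reads of Xist and of Y-linked genes placed the HD libraries of replicate 1 and the WT libraries of 8 weeks as male, and the HD libraries of replicate 2 and the WT libraries of 13 weeks as female, so WT age and sex cannot be told apart.

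Immediate early genes are transcribed within minutes of synaptic input or growth factor signals, without new protein synthesis. Calcium entering through NMDA receptors and voltage-gated channels activates CaM kinases and the MAP kinase cascade, which act on CREB, SRF and MEF2 bound near these genes. The proteins they encode then switch on a later wave of genes, and in striatal and cortical neurons the transcripts are widely used as a record of recent activity. In bulk tissue such as this, fewer cells of a type and less RNA per cell cannot be told apart.

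The promoter windows of 5 members are given first, because CREB and SRF are known regulators of this family; the letters searched for include their motifs. RefSeq windows on GRCm38.p6 run from 250 bases before to 50 bases after a start site, and 7 of the 10 members had at least 1 (11 windows). Capitals mark the CRE core TGACG read on either strand, the CArG box bound by SRF, the EGR motifs GCGGGGGCG and GCGTGGGCG (or their complements), and TATAA.
Egr2, chr10:67537619-67537918, + strand: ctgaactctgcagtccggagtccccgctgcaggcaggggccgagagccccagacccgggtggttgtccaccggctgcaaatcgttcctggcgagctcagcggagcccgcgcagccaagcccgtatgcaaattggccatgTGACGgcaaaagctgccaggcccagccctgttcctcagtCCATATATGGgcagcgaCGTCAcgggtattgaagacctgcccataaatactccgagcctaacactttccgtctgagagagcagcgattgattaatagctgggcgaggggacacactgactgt
Npas4, chr19:4989922-4990221, - strand: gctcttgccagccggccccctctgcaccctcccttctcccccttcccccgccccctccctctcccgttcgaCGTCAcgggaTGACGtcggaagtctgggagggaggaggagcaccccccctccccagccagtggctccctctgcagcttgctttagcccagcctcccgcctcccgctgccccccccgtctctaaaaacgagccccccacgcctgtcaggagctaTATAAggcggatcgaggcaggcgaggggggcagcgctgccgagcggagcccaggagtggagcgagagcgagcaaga
Egr4, chr6:85513540-85513839, - strand: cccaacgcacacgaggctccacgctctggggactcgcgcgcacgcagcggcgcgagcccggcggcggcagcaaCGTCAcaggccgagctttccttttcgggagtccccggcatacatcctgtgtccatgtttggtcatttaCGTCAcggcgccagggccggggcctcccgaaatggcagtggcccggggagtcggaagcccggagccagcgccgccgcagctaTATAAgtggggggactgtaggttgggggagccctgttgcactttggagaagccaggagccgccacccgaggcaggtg
Fos, chr12:85473640-85473939, + strand: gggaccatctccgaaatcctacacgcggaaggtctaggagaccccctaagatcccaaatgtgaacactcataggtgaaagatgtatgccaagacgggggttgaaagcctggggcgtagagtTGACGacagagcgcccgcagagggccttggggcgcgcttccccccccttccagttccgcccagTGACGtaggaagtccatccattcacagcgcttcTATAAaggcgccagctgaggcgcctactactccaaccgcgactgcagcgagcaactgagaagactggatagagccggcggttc
Nr4a1, chr15:101266596-101266895, + strand: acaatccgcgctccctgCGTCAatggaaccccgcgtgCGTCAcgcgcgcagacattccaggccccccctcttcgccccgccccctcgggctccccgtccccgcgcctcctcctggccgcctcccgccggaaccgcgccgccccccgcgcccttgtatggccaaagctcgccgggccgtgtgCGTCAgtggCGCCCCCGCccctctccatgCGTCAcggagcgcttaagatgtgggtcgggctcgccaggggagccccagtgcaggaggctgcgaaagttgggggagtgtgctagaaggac
On either strand, TGACG was found in 9 of the 11 member windows and in 7 of the 7 genes, against 20.8% of all 32851 windows. The full CRE, TGACGTCA, which contains that core, was in 0 of the 11 windows and in 1.79% of all windows. A CArG box was in 4 windows, all of Egr2, and in 1.63% of all windows. An EGR motif was in 2 member windows (Fosb and Nr4a1) and in 3.47% of all windows, TATAA was in 5 and 24.9%, and the AP-1 motifs TGACTCA and TGAGTCA were in 0 and 5.20%. These are matches of letters in windows that partly overlap each other for Egr2, where the CArG box CCATATATGG was counted more than once, and no binding was measured. Bases outside these windows were not searched, and Egr1, Egr3 and Arc had no window, so a motif not found here may lie elsewhere.

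Library totals ranged from 8814386 to 12091201 counts, and values below are CPM, counts scaled to the size of the library, after TMM scaling, with factors from 0.890 to 1.11. The summed CPM of gene lists, and ratios of these sums, are the exception: they are counts over the library total, without TMM scaling. The ribosomal RNA gene Rn45s took 10.5% to 15.2% of counts in HD libraries and 4.32% to 5.62% in WT libraries. Striatum and cortex libraries carried the markers of their region, with 10 of 10 tested striatum markers higher in striatum and 8 of 10 cortex markers higher in cortex, but Drd2 (0 to 4 counts per library) and Gpr6 (0 to 2 counts) were nearly absent from all libraries. Replicate 2 of the 8-week HD striatum stood apart from replicate 1, with 2573 against 7478 summed CPM of striatum markers, 20861 against 3243 of oligodendrocyte markers and 2063 against 135 of thalamus markers. Replicate 2 of the 13-week HD cortex held 3255 summed CPM of choroid plexus markers, against 71.9 in replicate 1. Several results over both regions are also given without them, and those by region as ranges over each library left out.

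At 13 weeks all 10 immediate early genes were lower in every HD library than in the WT library of the same region, as were 22.6% of all genes. The gap was widest for Egr2, which was listed at 3 and 7 counts in the HD striatum against 248 in the WT striatum, and narrowest for Fosb. At 8 weeks 7 of the 10 were below WT in every HD library, as were 15.1% of all genes. In the 8-week HD cortex all 10 were lower in replicate 1 than in replicate 2. The log2 ratios to WT there were -3.62 to -0.06 in replicate 1 and -0.95 to 0.35 in replicate 2. Fold changes, errors and tests for both regions together follow the values of each gene, on the log2 scale as HD over WT or 13 over 8 weeks with the standard error (SE) of edgeR's quasi-likelihood fit. A gene was called when edgeR's p-value, adjusted by Benjamini-Hochberg over all genes tested, was under 0.05.

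**Figure D1:**
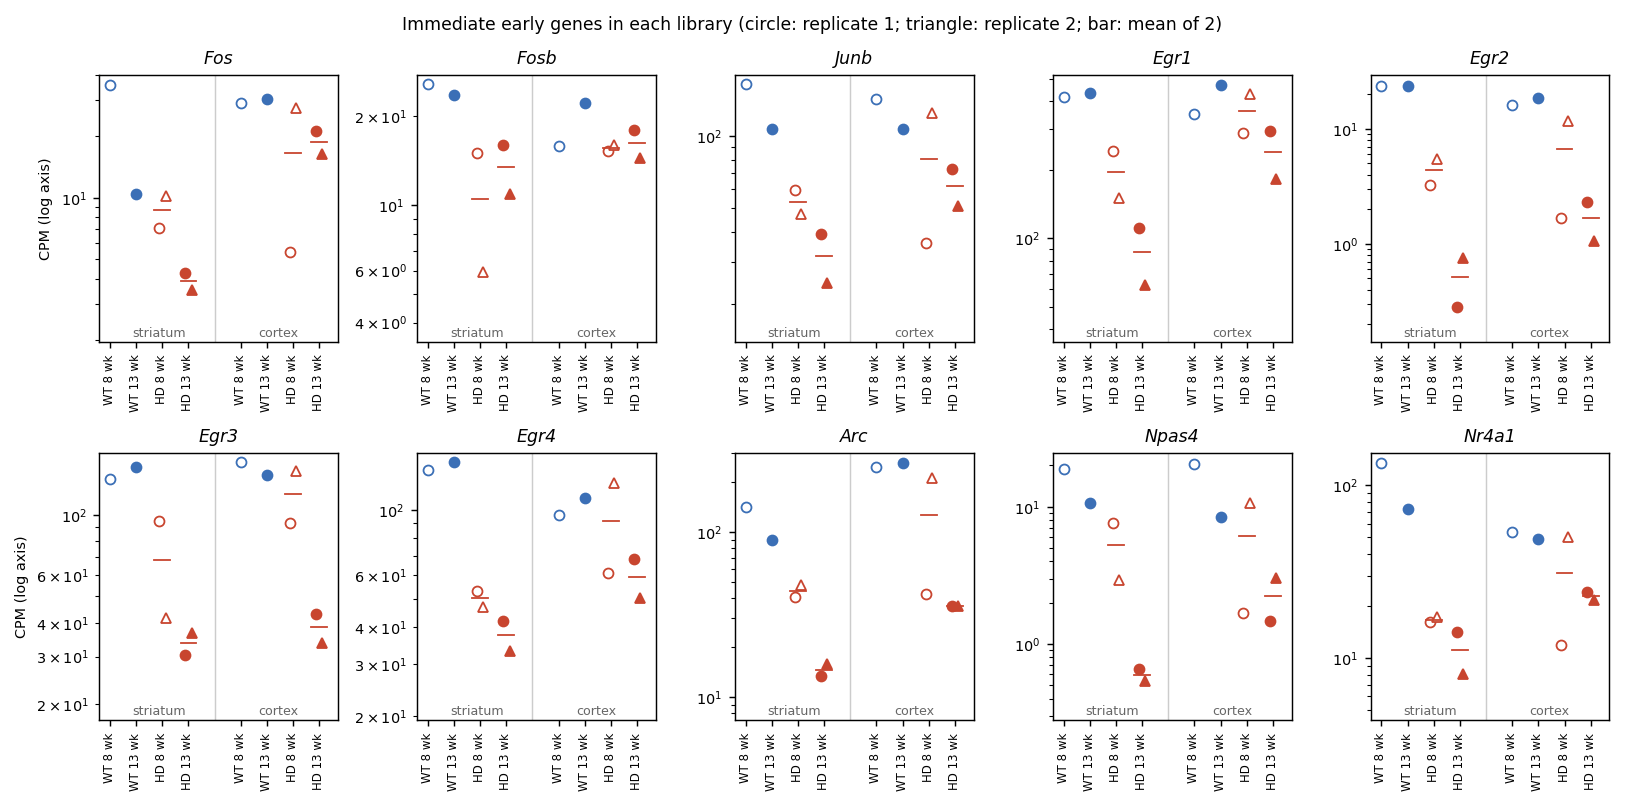
CPM of each immediate early gene in each of the 12 libraries on a log axis of its own, with striatum on the left and cortex on the right of each panel. Blue is WT (1 library per group) and red is HD (circle replicate 1, triangle replicate 2, bar their mean), open symbols are 8 weeks and filled symbols 13 weeks. The 13-week HD symbols lie below the 13-week WT symbol in all 10 panels and both regions.

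Egr1, a zinc finger factor used as an activity marker, was at 112 and 62.4 CPM in the 13-week HD striatum and at 432 in the WT striatum of that age. At 8 weeks the HD striatum had 242 and 149.9 CPM and the WT striatum 416. In cortex the HD libraries had 295 and 182 CPM at 13 weeks against 471 in WT, and 290.3 and 429 CPM at 8 weeks against 351. Egr1 was thus below WT in every HD library except replicate 2 of the 8-week cortex. Its fold change was -1.64 ± 0.40 at 13 weeks (edgeR adjusted p = 0.0377) and -0.61 ± 0.41 at 8 weeks (edgeR adjusted p = 0.564).

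Egr2, which in the brain follows strong stimulation and in Schwann cells drives myelination, ranged over 85.1-fold, the widest range among the 10 members. In the striatum it was at 0.280 and 0.749 CPM in HD at 13 weeks, 3.28 and 5.49 CPM in HD at 8 weeks, and 23.7 and 23.8 CPM in WT at 13 and 8 weeks. In the cortex it was at 2.32 and 1.06 CPM in HD at 13 weeks, 1.68 and 11.6 CPM in HD at 8 weeks, and 18.7 and 16.2 CPM in WT. No HD library reached the lowest WT library. In the 13-week striatum the pooled 10 HD counts against 248 WT counts gave a level 47.5-fold higher in WT, with a 95% exact interval of 25.4 to 100.3 that covers counting error only. Egr2 had a fold change of -4.31 ± 0.70 at 13 weeks (edgeR adjusted p = 0.00657) and -1.92 ± 0.64 at 8 weeks (edgeR adjusted p = 0.198).

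Egr3, a factor needed for long-term memory that also lies downstream of neurotrophin signals, was at 30.3 and 36.8 CPM in the 13-week HD striatum and 43.2 and 33.6 CPM in the 13-week HD cortex. WT had 151 CPM in striatum and 140.1 in cortex at that age. At 8 weeks HD had 95.2 and 41.6 CPM in striatum and 93.7 and 145 CPM in cortex, and WT had 136 and 156 CPM. The 4 HD libraries of 13 weeks lay below the HD libraries of 8 weeks of their region, with no overlap. At 13 weeks the fold change against WT was -2.03 ± 0.31 (edgeR adjusted p = 0.00491), the lowest adjusted p among the members, and at 8 weeks it was -0.67 ± 0.31 (edgeR adjusted p = 0.376).

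Egr4, the remaining family member, was at 41.9 and 33.4 CPM in the 13-week HD striatum and 53.3 and 47.0 CPM in the 8-week HD striatum, against 145 and 136 CPM in WT. In the cortex HD had 68.4 and 50.4 CPM at 13 weeks and 61.0 and 123 CPM at 8 weeks, against 109.9 and 96.2 CPM in WT. The HD and WT striatum did not overlap at either age, while the 8-week cortex libraries of HD lay on both sides of WT. Egr4 had a fold change of -1.46 ± 0.35 at 13 weeks (edgeR adjusted p = 0.0328) and -0.79 ± 0.36 at 8 weeks (edgeR adjusted p = 0.354).

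Fos, the AP-1 subunit that dimerizes with Jun proteins, was at 4.29 and 3.53 CPM in the 13-week HD striatum, 7.15 and 10.2 CPM in the 8-week HD striatum, and 10.4 and 35.8 CPM in WT at 13 and 8 weeks. In the cortex it was at 21.2 and 16.4 CPM in HD at 13 weeks, 5.45 and 27.5 CPM in HD at 8 weeks, and 30.3 and 29.2 CPM in WT. The WT striatum of 13 weeks was closer to the HD libraries than to the WT striatum of 8 weeks. Fos had a fold change of -0.94 ± 0.61 at 13 weeks (edgeR adjusted p = 0.421) and -1.61 ± 0.60 at 8 weeks (edgeR adjusted p = 0.259), and neither was called.

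Fosb, whose truncated product accumulates with repeated stimulation, had the narrowest range of the members, 4.34-fold. It was at 16.0 and 10.9 CPM in the 13-week HD striatum, 15.0 and 5.92 CPM in the 8-week HD striatum, and 23.6 and 25.7 CPM in WT. In the cortex it was at 18.0 and 14.4 CPM in HD at 13 weeks, 15.3 and 16.0 CPM in HD at 8 weeks, and 22.1 and 15.9 CPM in WT. The 8-week HD and WT cortex overlapped. Fosb had a fold change of -0.63 ± 0.34 at 13 weeks (edgeR adjusted p = 0.311) and -0.70 ± 0.35 at 8 weeks (edgeR adjusted p = 0.407), and its lowest library was replicate 2 of the 8-week HD striatum, which stood apart in its markers.

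Junb, the Jun family partner in AP-1, was at 39.0 and 24.4 CPM in the 13-week HD striatum, 59.5 and 47.3 CPM in the 8-week HD striatum, and 107 and 165 CPM in WT. In the cortex it was at 72.9 and 51.3 CPM in HD at 13 weeks, 35.8 and 125 CPM in HD at 8 weeks, and 108 and 143 CPM in WT. All HD libraries were below WT of the same age and region. Its fold changes were -1.27 ± 0.44 at 13 weeks (edgeR adjusted p = 0.115) and -1.27 ± 0.43 at 8 weeks (edgeR adjusted p = 0.218). Junb was the only member that overlaps another annotated gene (Prdx2, on the opposite strand, at 110 to 189 CPM), and whether reads were counted by strand is not given in the sources used here.

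Npas4, a neuron-specific factor induced by calcium that shapes inhibitory synapses, was at 0.653 and 0.535 CPM in the 13-week HD striatum, 7.61 and 2.91 CPM in the 8-week HD striatum, and 10.7 and 18.9 CPM in WT. In the cortex it was at 1.46 and 3.0 CPM in HD at 13 weeks, 1.68 and 10.7 CPM in HD at 8 weeks, and 8.47 and 20.6 CPM in WT. Every HD library was below WT of its age and region. The 13-week HD striatum had 7 and 5 counts against 112 in WT, a level 17.9-fold higher in WT with a 95% exact counting interval of 9.84 to 35.6. Npas4 had a fold change of -2.85 ± 0.69 at 13 weeks (edgeR adjusted p = 0.0329) and -1.80 ± 0.63 at 8 weeks (edgeR adjusted p = 0.223).

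Nr4a1, an orphan nuclear receptor induced by activity and dopamine signals, was at 14.1 and 8.02 CPM in the 13-week HD striatum and 16.0 and 17.2 CPM in the 8-week HD striatum, against 72.8 and 134 CPM in WT. In the cortex HD had 24.1 and 21.5 CPM at 13 weeks and 11.8 and 50.3 CPM at 8 weeks, against 48.7 and 53.6 CPM in WT. HD and WT did not overlap in either region at either age. The fold change was -1.92 ± 0.62 at 13 weeks (edgeR adjusted p = 0.100) and -2.08 ± 0.62 at 8 weeks (edgeR adjusted p = 0.161), so neither was called.

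Arc, which removes AMPA receptors from the synapse and whose mRNA is carried into dendrites, was at 13.4 and 15.8 CPM in the 13-week HD striatum, 40.4 and 47.9 CPM in the 8-week HD striatum, and 89.1 and 142 CPM in WT. In the cortex it was at 35.7 and 35.5 CPM in HD at 13 weeks, 41.9 and 211 CPM in HD at 8 weeks, and 260.3 and 247 CPM in WT. The 13-week HD libraries lay below the 8-week HD libraries of their region, and every HD library lay below WT. Arc had a fold change of -2.74 ± 0.46 at 13 weeks (edgeR adjusted p = 0.00806) and -1.34 ± 0.45 at 8 weeks (edgeR adjusted p = 0.214).

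Together, 6 of the 10 members (Arc, Egr1, Egr2, Egr3, Egr4 and Npas4) were called lower in HD at 13 weeks, and 0 were called higher. Over all 14706 genes tested, 7.36% were called in this comparison and 4.26% were called lower. The estimates of all 10 members were below 0, with a median of -1.78 against 0.01 over all genes tested. HD and WT libraries did not overlap within either region, with HD lower, for 10 of 10 members and for 22.6% of all genes. The calls rested on few libraries. This fit took striatum and cortex libraries as separate samples, so WT at 13 weeks rested on a striatum and a cortex library that may share a mouse. No fit of HD against WT took account of libraries that may come from the same mouse. Without the WT striatum library of 13 weeks 0 members were called (29 genes in all, against 1082), without the WT cortex library of 13 weeks 2 were called, and without either 13-week HD striatum library 3 were called, while the estimates of all 10 stayed below 0 in each of these fits. Leaving out both libraries that stood apart in their markers, a choice made after seeing the data, left 4 members called. A sex term also left 4 called, without Egr4 and Npas4, and DESeq2 called 8, where it called 1794 of 14706 genes.

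At 8 weeks edgeR called 0 of the 10 members, although all 10 estimates were below 0 (median -1.30, against -0.01 over all genes tested). Of the members 7 had an unadjusted p under 0.05, as did 2049 of 14706 genes, and DESeq2 called 3 members and 674 genes. In this comparison edgeR called 2.10% of genes, and 0.150% were called lower. HD libraries lay below WT in both regions for 7 of 10 members, all but Egr1, Egr4 and Fosb, and for 15.1% of all genes. The estimates ran from -2.08 for Nr4a1 to -0.61 for Egr1. Without replicate 2 of the 8-week HD cortex 1 member, Arc, was called.

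**Figure D2:**
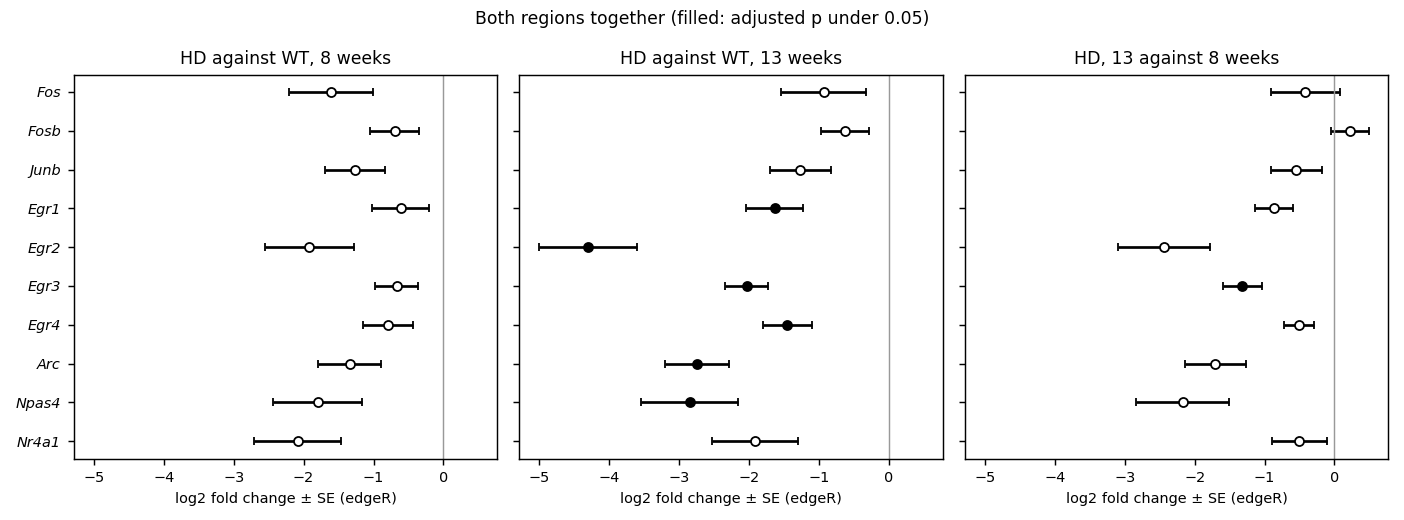
Log2 fold change with its SE (edgeR, both regions fitted together) of each immediate early gene for HD against WT at 8 weeks, HD against WT at 13 weeks, and HD at 13 against 8 weeks. Filled points were called: 0 of 10 in the left panel, 6 in the middle panel and 1 (Egr3) in the right panel, and all points but that of Fosb in the right panel lie below 0.

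Within HD mice, the change from 8 to 13 weeks was called for 1 member, Egr3, which fell by 1.32 ± 0.28 on the log2 scale (edgeR adjusted p = 0.0311), where 6.45% of 13944 genes were called and 4.53% were called lower. Arc (-1.71 ± 0.44, edgeR adjusted p = 0.0617), Egr2 (-2.44 ± 0.65, edgeR adjusted p = 0.0553), Npas4 (-2.17 ± 0.66, edgeR adjusted p = 0.0866) and Egr1 (-0.87 ± 0.27, edgeR adjusted p = 0.0998) did not pass. The other 5 ranged from -0.55 for Junb to 0.22 for Fosb, the only estimate above 0. The 13-week libraries lay below the 8-week libraries in both regions for Egr3 and Arc, 2 of 10 members, and for 11.0% of all genes. In an exact two-sided permutation test of age within region, Egr3 and Arc gave p = 0.0556, the smallest that 36 arrangements can give, and with same-numbered libraries kept together p = 0.333, the smallest of 6 arrangements. Egr3 was no longer called without any single 13-week HD library, without replicate 1 of the 8-week HD striatum or without either 8-week HD cortex library, and the count of members ranged from 0 to 3 over these fits. Without replicate 2 of the 8-week HD striatum, the library that stood apart most, Egr3 was the 1 member called. Taken by region, the same change was called for 0 of 10 members in striatum, where 0.160% of 14392 genes were called, and for 0 of 10 in cortex, where 0.591% were called. Members with an unadjusted p under 0.05 numbered 5 and 2, where 1872 and 2061 of the 14392 genes had one. DESeq2 called 2 members in each region, where it called 447 and 547 genes. The estimates ran from -3.07 for Npas4 to 0.41 for Fosb in striatum (median -1.05) and from -1.98 for Egr2 to 0.18 for Fos in cortex (median -0.62). The difference between the regions was called for 0 members and 0.00% of genes by edgeR, with 0 members at an unadjusted p under 0.05 and 0 by DESeq2.

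Change with age in WT mice, with 1 library per age and region, was not called for any member (edgeR, 0 of 10, with 0 at an unadjusted p under 0.05 and 0 by DESeq2), where 0.0136% of genes were called. The estimates ran from -1.03 for Fos to 0.19 for Egr1. The difference between the change in HD and the change in WT was called for 0 of 10 members, where 0.116% of genes were called. At an unadjusted p under 0.05 were 2 members, Egr3 and Egr2, and 1312 of 14706 genes, and DESeq2 called 0 members. The members' estimates of this difference ran from -2.39 ± 0.98 for Egr2 (edgeR adjusted p = 0.487) to 0.67 ± 0.88 for Fos (edgeR adjusted p = 0.897). A change with age that differs between HD and WT was not detectable for these genes with these libraries, except that without replicate 2 of the 8-week HD striatum 1 member, Egr3, was called.

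Comparing regions, the members were lower in HD than WT in striatum by more than in cortex for 9 of 10 genes at 13 weeks, all but Arc, and for 10 of 10 at 8 weeks, on the log2 ratio of mean CPM. At 13 weeks the striatum ratios ran from -5.52 for Egr2 to -0.81 for Fosb, with a median of -2.24, and the cortex ratios from -3.47 for Egr2 to -0.45 for Fosb, with a median of -1.04. At 8 weeks the medians were -1.65 in striatum and -0.81 in cortex. Taking replicate 1 of the 8-week HD cortex alone, the cortex ratio was below the striatum ratio for Fos, Junb, Egr2, Arc and Npas4. Those cortex ratios were -2.42, -2.00, -3.27, -2.56 and -3.62, against -2.04, -1.62, -2.44, -1.68 and -1.84 in striatum. For Fosb, Egr1, Egr3, Egr4 and Nr4a1 the striatum ratio stayed lower. With replicate 1 of the 8-week HD striatum alone, Npas4 was at -1.31 there against -1.74 in cortex, and the others stayed lower in striatum. In the fit of 8 group means, where each lone WT library was assumed to vary like the HD libraries, edgeR called 0 of 10 members in each of the 4 comparisons of HD with WT. All groups shared a common estimate of spread, so leaving out a library outside a comparison also changed these counts, as the ranges below show. The share of genes called was 0.724% in the 13-week striatum, 0.111% in the 13-week cortex, 0.228% in the 8-week striatum and 0.00% in the 8-week cortex. Members with an unadjusted p under 0.05 numbered 8, 4, 7 and 0 in that order, where 2226, 1780, 1801 and 1239 of 15337 genes had one. DESeq2 called 7, 2, 2 and 0 members, and 516, 214, 256 and 53 genes. The difference between the regions at 13 weeks was called for 0 members by edgeR, with 0 at an unadjusted p under 0.05 and 0 by DESeq2, and for 0.00% of genes, so the larger gap in striatum is a description of these libraries. The summed CPM of the striatum markers was also lower in the 13-week HD striatum, at 1627 and 1660 against 8905 in WT. At 13 weeks 2 of 10 tested striatum markers were called lower in striatum. Over both regions 6 of 10 were, where 4.26% of all genes were called lower. At 8 weeks the sum was 7478 and 2573 in the HD striatum against 8450 in WT, and the lower value was that of the library that stood apart. The members there summed to 501 and 366 CPM in HD against 1306 in WT. Summed pan-neuronal markers were at 3416 and 3336 CPM in the 13-week HD striatum against 3947 in WT. At 8 weeks they were at 3754 and 4667 CPM in the HD striatum against 4176 in WT. At 13 weeks 0 of 8 were called in striatum and 2 of 8 were called lower over both regions. These sums are shares of totals that include Rn45s, at 14.4% and 15.2% in the 13-week HD striatum and 5.62% in WT. The part of either marker list, or of Rn45s, in these results was not tested.

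**Figure D3:**
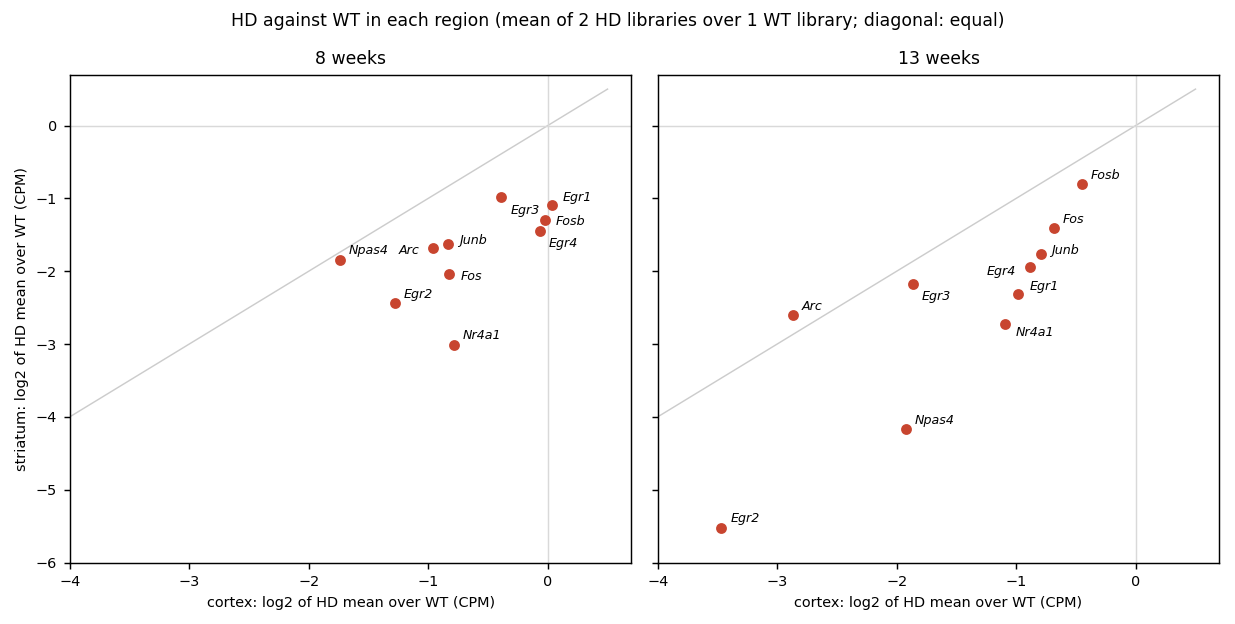
Log2 ratio of the mean of 2 HD libraries to the WT library in striatum (y axis) against cortex (x axis) at 8 weeks (left) and 13 weeks (right), 1 point per immediate early gene. Points under the diagonal line were lower in striatum than in cortex relative to WT: 10 of 10 at 8 weeks and 9 of 10 at 13 weeks, with Egr2 at the bottom left.

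Between striatum and cortex themselves, over all 12 libraries, Arc was lower in striatum by 1.32 ± 0.32 on the log2 scale (edgeR adjusted p = 0.0167) and was the 1 member called, where 20.6% of genes were called and 12.1% were called lower in striatum. All 10 estimates were below 0, up to -0.14 for Fosb. Arc was not called without either 13-week WT library, and 0 members were called without both libraries that stood apart. Of the 8 groups, a WT group had the highest mean for 10 of 10 members, and the 13-week HD striatum the lowest for 9 of 10, with Fosb lowest in the 8-week HD striatum. Ranked by mean CPM within each gene, 27 of the 70 gaps between neighbouring groups were smaller than the larger SD of the pair, 17 were larger, and 26 lay between WT groups with no SD. For Egr2 the HD groups ranked 8-week cortex (6.66 ± 7.04 CPM, SD, n = 2), 8-week striatum (4.39 ± 1.56), 13-week cortex (1.69 ± 0.89) and 13-week striatum (0.514 ± 0.332), of which the first 2 were not separated beyond their SD.

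The spread between the 2 libraries of a group was itself uneven. In the 8-week HD cortex all 10 members were higher in replicate 2, by a median of 1.92 on the log2 scale of CPM plus 0.5, where the median absolute ratio over all 14706 genes was 0.21 and the 95th percentile 1.06. Egr2 differed by 2.48, Npas4 by 2.36, Arc by 2.32, Fos by 2.24, Nr4a1 by 2.04 and Junb by 1.79, each a ratio larger than that of 99.3% to 99.9% of genes. Egr4 differed by 1.01, Egr3 by 0.63, Egr1 by 0.56 and Fosb by 0.06. Against the WT cortex, the log2 ratios of replicate 2 ran from -0.95 for Npas4 and -0.47 for Egr2 to 0.35 for Egr4, with Arc at -0.22, Nr4a1 at -0.09 and Fos at -0.08. Those of replicate 1 ran from -3.62 for Npas4 and -3.27 for Egr2 to -0.28 for Egr1 and -0.06 for Fosb, with Arc at -2.56, Fos at -2.42 and Nr4a1 at -2.18. Marker lists differed little between these cortex libraries: summed pan-neuronal markers by -0.03, cortex markers by -0.02, oligodendrocyte markers by 0.18 and choroid plexus markers, at 2 to 3 CPM, by -0.28. Summed in the same way, the members were higher by 1.03 in replicate 2. The other rapid immediate early genes, summed, were higher by 0.55, and the delayed activity-induced genes by 0.07. Replicate 1 was male and replicate 2 female by its reads, and sex and mouse cannot be told apart in this pair.

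In the other HD groups the members' median absolute ratio was 0.43 in the 13-week striatum, 0.40 in the 13-week cortex and 0.58 in the 8-week striatum, against 0.31, 0.24 and 0.44 over all genes. In the 13-week cortex 9 of 10 members were higher in replicate 1, all but Npas4. In the 8-week striatum of the same numbers the direction was mixed. There 4 members (Fos, Egr2, Arc and Nr4a1) were higher in replicate 2 and 6 higher in replicate 1. In that pair Arc, Nr4a1 and Egr4 differed by 0.24, 0.10 and -0.18, while the summed striatum markers differed by -1.54 and the oligodendrocyte markers by 2.69. Over the members, the replicate differences of the 8-week striatum and the 8-week cortex correlated at r = 0.62, against 0.10 over all genes.

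**Figure D4:**
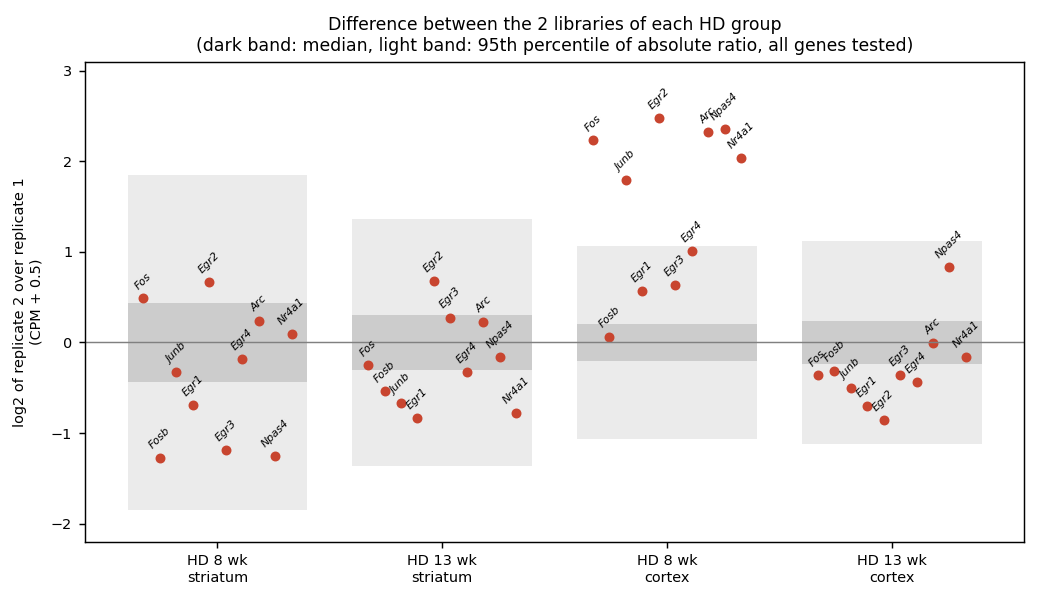
Log2 ratio of replicate 2 to replicate 1 (CPM plus 0.5) of each immediate early gene in the 4 HD groups. The dark band is the median and the light band the 95th percentile of the absolute ratio over all genes tested, and in the 8-week cortex 6 members lie above the light band.

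The members moved together over the 12 libraries. After taking the region mean from log2 CPM, all 45 pairs had a Pearson r above 0, from 0.38 to 0.97 with a median of 0.86, a description over points that share libraries, depth and groups. The closest pairs were Junb with Nr4a1 (0.97), Egr2 with Arc (0.96) and Egr4 with Nr4a1 (0.94). Fosb was least like the rest, at 0.38 with Arc and 0.40 with Fos, and the latter became 0.73 without replicate 2 of the 8-week HD striatum. Among 10638 genes outside the lists with a mean of at least 5 CPM, those most like the members' mean were Arid1b (0.96), a chromatin remodelling subunit, Srsf9 (0.93), a splicing factor, Tmem87a (0.93), the mitochondrial protease Pitrm1 (0.93) and Ubtd2 (0.93). None of these 5 was called in either comparison of HD with WT, and their estimates at 13 weeks lay between -0.61 and -0.32.

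**Figure D5:**
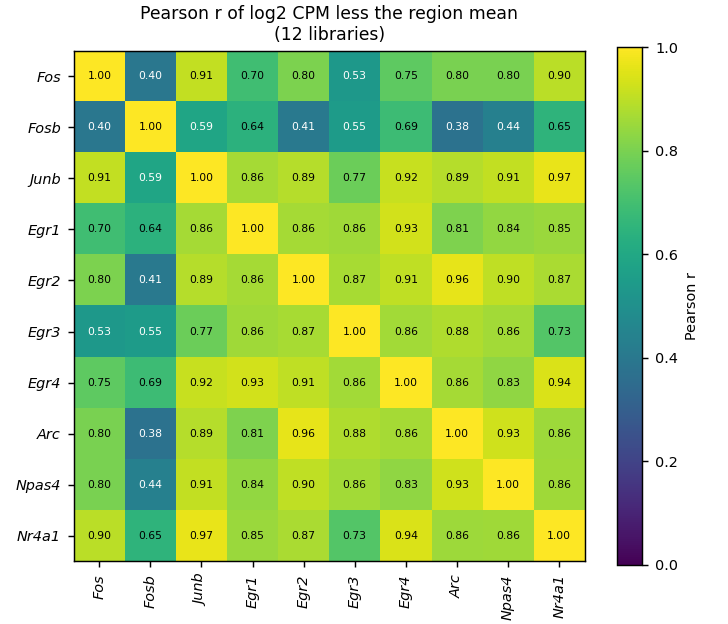
Pearson r between each pair of immediate early genes over 12 libraries, on log2 CPM less the mean of the region, coloured from 0 to 1. The row and column of Fosb are the darkest, and the pair of Junb with Nr4a1, at 0.97, is among the lightest.

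Other genes of the same response, from lists chosen with earlier results of these data known, were read beside the members. Of 32 tested other rapid immediate early genes, 7 were called lower in HD at 13 weeks and 0 higher, with a median of -0.82. Among all genes 4.26% were called lower in that comparison. The lists were not drawn at random, so the counts are a description. The 7 included Ier5 (-1.96 ± 0.23, edgeR adjusted p = 0.00154), the ERK phosphatase Dusp6 (-1.54 ± 0.21, edgeR adjusted p = 0.00234), the TGF-beta inducible factor Klf10 (-2.15 ± 0.38, edgeR adjusted p = 0.00711) and the Fos relative Fosl2 (-2.34 ± 0.45, edgeR adjusted p = 0.0144). Without the 13-week WT striatum library Ier5 stayed called and the other 3 did not, and without the 13-week WT cortex library Klf10 and Fosl2 were not called. From 8 to 13 weeks in HD, 3 of 30 were called, all lower: Klf10 (-1.50), Ier5 (-0.96) and the clock gene Per1 (-0.79), where 4.53% of all genes were called lower. Over the 8 fits that left out 1 library, Klf10 and Per1 were called in 3 and Ier5 in 2. None of the 3 was called without a 13-week HD cortex library or without replicate 2 of the 8-week HD cortex. The call of Klf10 was also lost with same-numbered libraries of an age as a random block, and that of Per1 with upper-quartile scaling. At 8 weeks edgeR called 0 of 32, with Btg2 at -1.58 (edgeR adjusted p = 0.0530) and Cyr61 at -1.99 (edgeR adjusted p = 0.414).

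Delayed activity-induced genes form the later wave. Nptx2, a secreted protein that clusters AMPA receptors (-2.15 ± 0.30, edgeR adjusted p = 0.00241), and the MAP kinase inhibitor Spry2 (-0.69 ± 0.19, edgeR adjusted p = 0.0461) were the 2 of 15 called lower at 13 weeks. At that age 4.26% of all genes were called lower. Spry2 was not called with a sex term or upper-quartile scaling, and of the 12 fits that left out 1 library it was called only in the 2 without an 8-week HD striatum library. Nptx2 was at 3.4 to 6.7 CPM in the 4 HD libraries of 13 weeks and 22.9 to 34.1 CPM in the 4 WT libraries. Nptx2 (-1.64) and the synaptic scaffold Homer1 (-0.92) were the 2 of 14 called lower from 8 to 13 weeks in HD, where 4.53% of all genes were. Nptx2 stayed called in each of the 8 fits without 1 library, while Homer1 was called only in the 2 without an 8-week HD striatum library. Homer1 was also not called with same-numbered libraries of an age as a random block. At 8 weeks 0 of 15 were called.

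Among 25 regulators between synaptic signals and these promoters, 8 were called lower in HD at 13 weeks, where 4.26% of all genes were. The 1 called higher was the histone acetyltransferase Crebbp (0.61 ± 0.17, edgeR adjusted p = 0.0455), named after its value was seen. Crebbp was not called with a sex term or without any 1 of the 13-week libraries or the 8-week HD cortex libraries. Camkk2, the kinase that activates CaM kinase IV, was at 107 and 90.9 CPM in the 13-week HD striatum and 155 and 159 CPM in the HD cortex, against 436 and 701 CPM in WT (-2.15 ± 0.18, edgeR adjusted p = 0.000117). Camk4, its substrate, had -1.40 ± 0.27 (edgeR adjusted p = 0.0118), the CArG box factor Srf -1.45 ± 0.24 (edgeR adjusted p = 0.00626) and the NMDA receptor subunit Grin1 -0.79 ± 0.14 (edgeR adjusted p = 0.00617). Without the 13-week WT striatum library, Camk4, Srf, Grin1 and Nptx2 were not called, while Camkk2 was called in each of the 12 fits without 1 library. From 8 to 13 weeks in HD, 6 of 25 were called lower, where 4.53% of all genes were. Camkk2 (-1.86), Camk4 (-1.53), Mef2c (-0.73) and Grin1 (-0.63) led these. Mef2c and Grin1 were not called without a 13-week HD cortex library, nor Grin1 without an 8-week HD cortex library. Camkk2 was also the 1 regulator called for the HD change less the WT change (-1.73 ± 0.27, edgeR adjusted p = 0.0479), and that call was lost with a sex term, with upper-quartile scaling and in 11 of the 12 fits without 1 library, all but that without replicate 2 of the 8-week HD striatum. Of 6 co-regulators that bind EGR or AP-1 proteins edgeR called 0 at either age. The EGR co-repressor Nab2 was at -1.12 ± 0.31 at 13 weeks (edgeR adjusted p = 0.0519), and was called lower in 9 of 19 alternatives, DESeq2 and a minimum of 1 CPM among them.

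The marker lists of cortex, oligodendrocytes, astrocytes, microglia, endothelium, thalamus and choroid plexus had 0 members called in HD against WT at 13 weeks. In HD from 8 to 13 weeks 5 of 10 tested striatum markers, 4 of 8 pan-neuronal markers and 1 of 8 astrocyte markers were called lower. Among all genes 4.53% were called lower there. At 8 weeks against WT the microglial complement gene C1qc was called higher. Choroid plexus markers summed to 71.9 and 3255 CPM in the 13-week HD cortex and 5.38 in the WT cortex of that age, and the part of these cells in the members' values was not tested. Without the library holding 3255 CPM the members called at 13 weeks numbered 4.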

How the data were processed

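RNA-seq was analysed in 12 libraries prepared with the Lexogen QuantSeq kit, which reads the 3' ends of transcripts. The authors deposited 1 table of raw counts per gene symbol for each library. The submitters' processing notes name Bowtie2, bedtools and the mm10 build, while versions, annotation and counting rule are not given in the sources used here. Groups were taken from the labels. Counts were tested with edgeR 4.0.16 (TMM scaling and robust quasi-likelihood fits) after its filterByExpr step had removed low genes (minimum count 10), with Benjamini-Hochberg adjustment over all genes tested and a threshold of 0.05, after tests on simulated data. HD libraries were fitted with region and age, all 12 with region and genotype by age, and all 12 with 8 group means. DESeq2 1.42.0, upper-quartile scaling, other filters, limma 3.58.1 (voom), a sex term, a replicate term and each library left out were the alternatives. The 10 genes and all lists were chosen with earlier results of these data known. All members were named; other lists were named by lowest adjusted p, up to 4 per list, or otherwise the 2 largest fold changes. No promoter window was used here for the 3 members without a match.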

Additional observations from a re-analysis of the deposited data

Results flagged for a closer look

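Each member was looked at in each region. In 4 cases every 13-week HD library lay below every 8-week HD library, while WT, a single library per age, was up by 0.05 to 0.16. The share of all genes with this pattern was not counted, so the 4 cases are a description and do not single out these members. In each the difference between genotypes within the region was not tested, and the values are the HD change less the WT change, as log2 ratios of mean CPM. Egr1 in striatum fell in HD (-1.17) and not in WT (0.05), a difference of -1.23. Egr3 in striatum changed by -1.03 in HD and 0.16 in WT, a difference of -1.18. Egr4 in striatum changed by -0.42 and 0.09, a difference of -0.50. Arc in cortex changed by -1.83 and 0.08, a difference of -1.91. Over both regions edgeR called none of these 4 differences, with adjusted p = 0.676 for Egr1, 0.366 for Egr3, 0.795 for Egr4 and 0.595 for Arc. No group held the 4 samples that a check for single outlying libraries needs.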

How the results depend on the processing

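Every count below is of genes, or of the 10 members, called at an adjusted p under 0.05; where a count changed, the cause was not tested unless the setting itself removed samples or genes. For HD against WT at 13 weeks, DESeq2 called 1794 genes and 8 members against 1082 and 6 by edgeR, no filter left 3 members called, a sex term and the 1 CPM minimum 4 each, and leaving out 1 library gave 29 to 1834 genes and 0 to 6 members. Egr2 and Npas4 could not be fitted under a minimum of 1 CPM in every library, which removes them. At 8 weeks DESeq2 called 674 genes and 3 members against 309 and 0, and leaving out 1 library gave 0 to 444 genes and 0 to 1 members. For HD from 8 to 13 weeks, DESeq2 called 1680 genes and 5 members against 900 and 1, the 1 CPM minimum and no filter each gave 2 members, and leaving out 1 library gave 211 to 1518 genes and 0 to 3 members. Leaving out both libraries that stood apart, chosen after seeing the data, gave 1658 genes at 13 weeks, 2 members from 8 to 13 weeks, 202 genes and 1 member (Egr3) for the HD change less the WT change, and 0 members between regions.

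By region, DESeq2 and no filter called 516 and 306 genes in the 13-week striatum (edgeR 111), with 7 and 1 members, 214 and 84 genes in the 13-week cortex (edgeR 17), with 2 members by DESeq2, and 11 genes in that cortex with the 1 CPM minimum. They called 256 and 100 genes in the 8-week striatum (edgeR 35), with 2 members by DESeq2, and 53 and 10 genes in the 8-week cortex (edgeR 0). From 8 to 13 weeks they called 447 and 163 genes in striatum (edgeR 23) and 547 and 251 in cortex (edgeR 85), with 2 members each by DESeq2, 45 genes in cortex with upper-quartile scaling, and 15 and 1 genes for the difference between regions (edgeR 0). For the HD change less the WT change, DESeq2 called 222 genes, no filter 30, upper-quartile scaling 5 and a sex term 0, against 17. For WT with age DESeq2 called 11 and a sex term 0, against 2. DESeq2 called 3 members between striatum and cortex, where it called 3776 of 14706 genes.

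Leaving out 1 library gave 0 to 211 genes and 0 to 1 members for the HD change less the WT change, 0 to 5 genes for WT with age, and 0 to 3 members between regions. It gave 0 to 1202 genes and 0 to 1 members in cortex and 0 to 1083 genes and 0 to 2 members in striatum from 8 to 13 weeks, with 0 to 168 genes for their difference. At 13 weeks it gave 0 to 889 genes and 0 to 1 members in cortex, 1 to 1469 genes and 0 to 4 members in striatum, and 0 to 68 genes for their difference. At 8 weeks it gave 0 to 164 genes in cortex and 0 to 1981 genes and 0 to 2 members in striatum. Where this left a group with 1 library, that library was assumed to vary like the other groups.

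A few uncalled estimates changed sign. Fos from 8 to 13 weeks in HD became 0.14 under limma-voom with same-numbered libraries of an age as a random block. Egr1 in the 8-week cortex became -0.0018 with Rn45s left out, and Fosb between regions became 0.03 without both libraries that stood apart. Over single libraries left out, the ranges that crossed 0 were, from 8 to 13 weeks in HD, -0.018 to 0.45 for Fosb and -0.81 to 0.010 for Nr4a1 in both regions, -0.14 to 1.20 for Fosb in striatum, and -0.56 to 1.78 for Fos and -2.78 to 0.0022 for Egr2 in cortex. At 8 weeks they were -1.13 to 0.072 for Egr1, -0.27 to 0.28 for Egr1 in cortex, -3.26 to 0.30 for Cyr61 and -0.028 to 0.87 for Jdp2. For WT with age they were -0.30 to 0.90 for Egr1 and -1.79 to 0.066 for Fos, for the HD change less the WT change -0.48 to 1.38 for Fos, and between regions -0.32 to 0.040 for Fosb.

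In the main fits the replicate numbers were not taken to pair the libraries: no label ties them to a mouse. Correlations of same-numbered deviations between HD groups, some of different ages, ran from 0.00 to 0.19 over all genes and from -0.46 to 0.62 over the members. Between striatum and cortex they were 0.17 at 13 weeks and 0.10 at 8 weeks over all genes. Over the members they were -0.17 at 13 weeks and 0.62 at 8 weeks. Replicate 1 was male and replicate 2 female in every HD group, so a replicate block and sex cannot be told apart there. On the same genes, fitting the number as a replicate block gave 36 genes against 23 in striatum and 1022 against 900 genes in both regions from 8 to 13 weeks, with 1 member called as before. Depth limits Egr2 and Npas4 most, at 3 to 7 counts in the 13-week HD striatum.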
